A study of Mus musculus with 7 samples.

Results

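The genes described here are 40 mouse genes named in the series of proteasome subunits and activators, out of 53801 genes counted in every library. They were chosen by name: protein-coding symbols of the series Psma, Psmb, Psmc, Psmd and Psme followed by digits, with the immunoproteasome genes Psmb8, Psmb9 and Psmb10 left out. By symbol, 16 are counted with the 20S core, 20 with the 19S cap and 4 with the activators. The set includes the cap assembly chaperones Psmd5, Psmd9 and Psmd10 and the tissue-specific subunits Psma8 and Psmb11. The cap subunits Adrm1 and Sem1 fall outside this choice by name. The measurements are gene counts from bone marrow mesenchymal stromal cells (BMSCs), the non-blood cells of the marrow that support blood formation and give rise to bone and fat cells. The donors were male C57BL/6 mice, 8 weeks old when treatment began. One group (FAPi, n = 4) was injected intraperitoneally with an inhibitor of fibroblast activation protein, a cell surface protease of activated stromal cells, at 500 µg/kg. The other group (DPBS, n = 3) received phosphate-buffered saline, and both were dosed every day over 35 days in 100 µl. Which compound this was is not given in the sources read here. From limb bones, 7000 live cells per sample (Calcein-AM+ DAPI-) that were Pdgfra+ and CD45- Ter119- Tie2- were sorted and made into modified Smart-seq2 libraries. No genotype other than the strain is labelled, and neither group was left without injection.

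The proteasome is the protease that degrades most ubiquitin-tagged proteins of the cytosol and nucleus. Its 20S core is a barrel of stacked rings: alpha subunits form the outer rings and gate the channel, and beta subunits form the inner rings, where Psmb5, Psmb6 and Psmb7 carry the active sites. The 19S cap binds ubiquitin chains, removes them and unfolds the substrate with a ring of ATPases, while the activators PA28 (Psme1, Psme2, Psme3) and PA200 (Psme4) open the core without using ubiquitin. In many cell types the subunit genes are induced together by the transcription factor Nfe2l1 through antioxidant response elements, and PA28 alpha and beta are induced by interferon. In stromal cells that secrete much collagen, the proteasome also removes misfolded proteins sent back from the endoplasmic reticulum.

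The promoters of 33 of the 40 genes were found in the RefSeq annotation of GRCm38.p6 as the 250 bases before and the 50 bases after the start. Matches to 2 regulatory motifs are shown for the genes that the results below turn on, because catalytic subunit genes and the PA200 gene hold one and a PA28 gene holds the other. The first motif, TGACNNNGC, is the antioxidant response element core, searched on both strands. A gene was counted if any promoter under its symbol held a match. The motif lay in the window of 6 of the 33 member genes (18.2%) and of 14% of all 27025 genes. Capitals mark the match, and each sequence is the strand of its gene on mm10, read 5′ to 3′.
Psmb5, chr14:54618024-54618052, minus strand: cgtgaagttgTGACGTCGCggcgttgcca
Psmb6, chr11:70525338-70525366, plus strand: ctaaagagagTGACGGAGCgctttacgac
Psme4, chr11:30771758-30771786, plus strand: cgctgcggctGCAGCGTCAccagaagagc
Psmd9, chr5:123228149-123228177, plus strand: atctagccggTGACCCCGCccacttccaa
In Psme4 the match reads on the opposite strand. The other two genes with a match were Psmc6 and Psmd12. The second motif, GAAA, any 2 bases and GAAA, is a form of the interferon response element, also searched on both strands. It lay in the window of 4 of the 33 member genes (12.1%) and of 3.99% of all genes. The genes with a match were Psme1, Psmb3, Psmd4 and Psmd9, and the first pair is shown with the match in capitals.
Psme1, chr14:55578493-55578522, plus strand: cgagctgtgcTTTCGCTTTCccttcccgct
Psmb3, chr11:97703261-97703290, plus strand: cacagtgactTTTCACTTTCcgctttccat
Both of these read on the opposite strand of the gene. A match is a string of letters and does not show that a factor binds there. The CCAAT box, the letters CCAAT on either strand, lay in the window of 39.4% of member genes and 41.1% of all genes. For the GC box GGGCGG the shares were 63.6% and 38.2%.

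Total counts ranged from 7492570 to 10569690 per library. Summed over 6 stromal markers, Pdgfra, Lepr and Cxcl12 among them, levels were alike in the groups, at 23265 to 24808 CPM (counts scaled to library size by TMM factors) in DPBS and 23210 to 26637 in FAPi. Markers of cell types that the sort should remove were present and uneven. Erythroid markers, of which 9 of 10 were matched, summed to 1666 to 15238 CPM in DPBS and 1548 to 3088 in FAPi, with Alas2 at 0 in 1 or more libraries, and 10 neutrophil markers to 620 to 2631 and 187 to 619 CPM. The 6 macrophage and pan-hematopoietic markers summed to 154 to 363 and 95.9 to 156 CPM, with Adgre1, Csf1r and Cd68 at 0 in 1 or more libraries. For 5 endothelial markers the sums were 19.1 to 59.8 and 21.3 to 358 CPM, and Tek, which encodes the Tie2 used in the sort, was at 0 in 1 or more libraries. All 8 B cell markers, Ebf1 among them, were matched and summed to 616 to 1041 and 744 to 1166 CPM. The part of each gene in this sum was not looked at, so it cannot be read as B cells alone. The 4 T and NK cell markers did not exceed 3.70 CPM in sum, with Cd3e, Cd3d and Trac at 0 in 1 or more libraries. DPBS replicate 2 had the highest erythroid, neutrophil, macrophage and cell cycle sums, the last at 813 CPM where the other 6 libraries held 138 to 285, and FAPi replicate 1 had the highest endothelial sum. How much these cells contribute to the values of the proteasome genes was not tested. In sorted bulk samples, fewer cells of a type and less RNA per cell cannot be told apart.

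No proteasome gene passed the test between FAPi and DPBS in either direction. In edgeR's quasi-likelihood test with Benjamini-Hochberg adjustment over 12930 genes at a threshold of 0.05, 0 of the 39 proteasome genes tested were called higher (0% of all genes) and 0 lower (0% of all genes). The gene not tested was Psmb11. At an unadjusted p below 0.05, 2 of 39 members passed (5.13%), against 8.14% of all genes. These were Psme4, with the higher estimate in FAPi (4.45% of all genes passed in that direction), and Psmd2, with the lower one (3.69%). Values of the FAPi and DPBS libraries did not overlap for 2 of the 39 (5.13%), against 7.34% of all genes. Psme4 was the one higher in FAPi (3.39% of all genes) and Psmd8 the one lower (3.95%). On the genome these 3 genes are Psme4 (ENSMUSG00000040850.17, chr11:30771726-30880361 on mm10), Psmd2 (ENSMUSG00000006998.15, chr16:20651652-20663414 on mm10) and Psmd8 (ENSMUSG00000030591.17, chr7:29174188-29180701 on mm10). DESeq2, run as an alternative, called 0.626% of all genes higher and 0.379% lower, and no member. Both member shares of 5.13% lay under those of all genes.

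Estimates leaned to the lower side. The fitted log2 fold change, FAPi minus DPBS, was below 0 for 27 of 39 members (69.2%) and for 49.4% of all genes, with a median of -0.17 for the members and 0.01 for all genes. This lean rested on 1 library. Without DPBS replicate 2, the library with the highest erythroid, neutrophil and cell cycle markers, 19 of 39 members had a lower estimate, beside 47.6% of all genes. By class and with all libraries, 11 of 15 core genes, 14 of 20 cap genes and 2 of 4 activator genes had a lower estimate. The median standard error (SE) of the log2 fold change was 0.35 for them and 0.62 over all genes. For 16 of 39 members (41%) the whole 95% confidence interval lay within 1 log2 unit of 0, against 11.3% of all genes. Neither comparison was matched for level. Genes in the level range of the members, Psma8 and Psmb7 aside, varied less within groups than all genes. Their median coefficient of variation was 29.4% in DPBS and 33.6% in FAPi, against 44.2% and 50.7% for all genes.

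**Figure D1:**
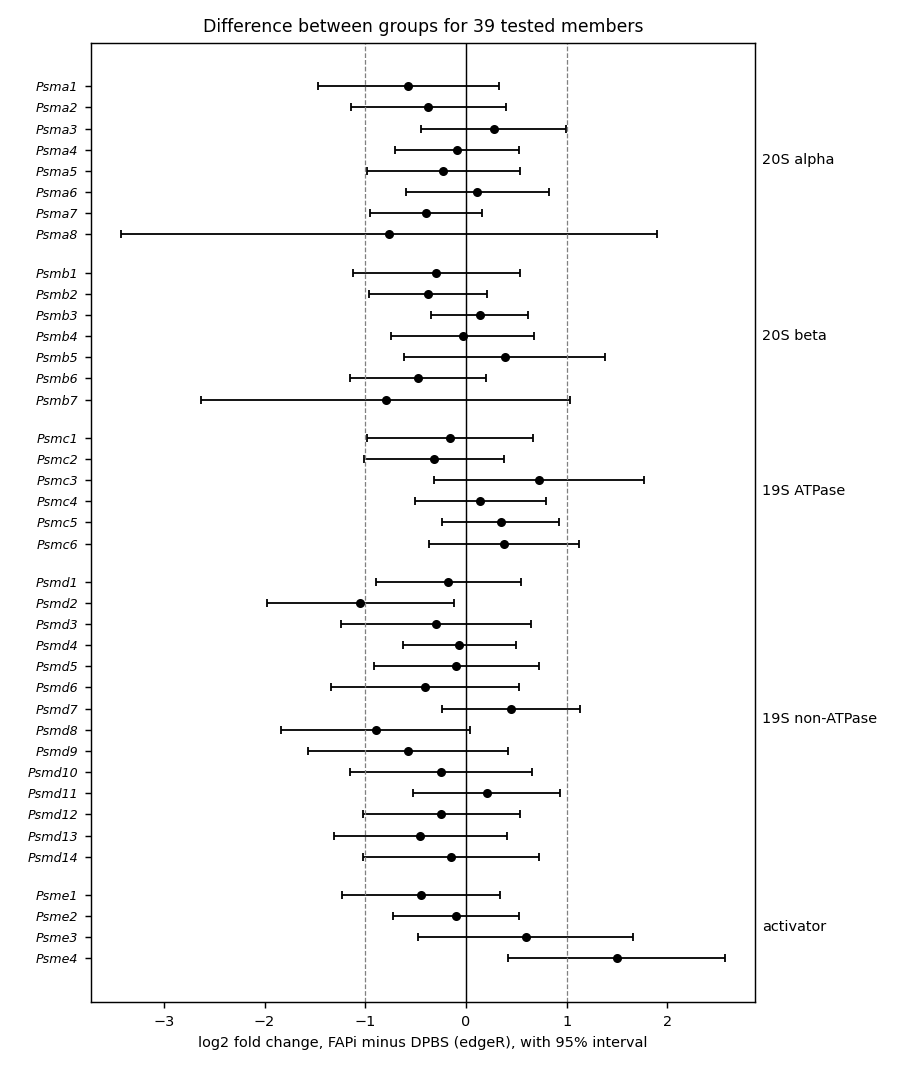
Log2 fold change (FAPi minus DPBS, horizontal axis) of the 39 tested proteasome genes, grouped by class, as points with 95% confidence intervals from edgeR. Psme4 has the highest estimate and Psmd2 the lowest, and the intervals of both leave out 0, but neither passed the adjusted threshold.

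Of the 8 alpha subunits of the 20S core, 2 had a higher and 6 a lower estimate, with a median log2 fold change of -0.30, and none passed the test. Psma7, an alpha ring subunit, had the smallest p among them. Its TMM-scaled level was 232, 305 and 266 CPM in DPBS and 149, 219, 201 and 246 CPM in FAPi. The highest FAPi library lay above the lowest DPBS library, so the groups overlapped. Its log2 fold change was -0.39 ± 0.25 (SE; 95% interval -0.95 to 0.16; edgeR adjusted p = 0.726).

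Psma1, a further alpha ring subunit, stood at 82.4, 171 and 76.9 CPM in DPBS and at 117, 71.3, 46.7 and 60.0 CPM in FAPi. DPBS replicate 2 alone lay above every FAPi library. On the log2 scale the difference was -0.58 ± 0.41 (SE; edgeR adjusted p = 0.753), and -0.11 without that library. Psma2, which sits in the same ring, showed 117, 238 and 187 CPM in DPBS and 131, 96.4, 116 and 215 CPM in FAPi. Here too DPBS replicate 2 was the highest library, and FAPi replicates 1 and 4 lay among the DPBS values. The difference was -0.37 ± 0.35 on the log2 scale (SE; edgeR adjusted p = 0.835), and -0.13 without DPBS replicate 2.

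Psma3 held the most counts of all members. Its level was 429, 542 and 811 CPM in DPBS and 504, 1134, 648 and 593 CPM in FAPi. FAPi replicate 2 was far above the rest, and the groups overlapped. The estimate of 0.28 ± 0.33 on the log2 scale (SE; edgeR adjusted p = 0.884) became -0.04 without FAPi replicate 2.

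Psma8 encodes the alpha subunit that replaces Psma7 in the testis. It was counted 36, 79 and 34 times in the DPBS libraries and 4, 76, 7 and 3 times in the FAPi libraries, that is 3.23, 8.34 and 3.204 CPM against 0.50, 9.82, 0.82 and 0.42 CPM. Of the FAPi libraries, 3 lay below every DPBS library and 1, replicate 2, above all of them. Its fitted change was -0.77 ± 1.20 on the log2 scale (SE), and -3.06 without FAPi replicate 2. A level of 3 counts, taken as the floor, is 0.269 to 0.419 CPM depending on the library, and the lowest Psma8 value stands at it. Psma4, Psma5 and Psma6, the other alpha subunits, had log2 fold changes of -0.09, -0.22 and 0.11.

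Of the 7 beta subunits tested, 2 had a higher and 5 a lower estimate, with a median log2 fold change of -0.29. Among the catalytic ones, 1 had a higher and 2 a lower estimate. Psmb6, which carries the caspase-like activity, measured 215, 347 and 270 CPM in DPBS and 123, 234, 176 and 261 CPM in FAPi. FAPi replicate 1 was the lowest and DPBS replicate 2 the highest library, and the groups overlapped. The means were 277 ± 66.6 (SD, n = 3) and 199 ± 61.8 CPM (SD, n = 4), a log2 fold change of -0.48 ± 0.31 (SE; 95% interval -1.16 to 0.19; edgeR adjusted p = 0.723).

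Psmb5 carries the chymotrypsin-like activity and is the main target of the drug bortezomib. It stood at 51.3, 26.5 and 29.4 CPM in DPBS and at 44.2, 22.1, 54.5 and 66.2 CPM in FAPi. Both groups held low and high libraries. Means of 35.7 ± 13.6 (SD, n = 3) and 46.7 ± 18.7 CPM (SD, n = 4) gave a log2 fold change of 0.39 ± 0.45 (SE; 95% interval -0.61 to 1.39; edgeR adjusted p = 0.881). Without FAPi replicate 4 the estimate was 0.17. Reads of Psmb5 could be split with Gm3375, whose transcript is 98.9% identical over the aligned stretch.

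Psmb7, with the trypsin-like activity, had the most uneven levels of the catalytic genes. Its values were 10.03, 24.1 and 5.94 CPM in DPBS and 19.8, 3.23, 3.26 and 4.33 CPM in FAPi. FAPi replicate 1 lay among the DPBS values, while the other 3 FAPi libraries lay under all of them. For Psmb7 the log2 fold change was -0.80 ± 0.83 (SE; 95% interval -2.63 to 1.03; edgeR adjusted p = 0.856), -1.89 without FAPi replicate 1 and -0.06 without DPBS replicate 2. Exons of Psmb7 overlap those of Nek6 on the other strand. Without a stated strand setting, reads of the pair cannot be told apart, so the level of Psmb7 is uncertain. The same limit holds for Psma4, Psma5, Psmc3, Psmd1, Psmd3, Psmd9, Psmd13 and Psme1, whose exons also overlap those of a gene on the other strand.

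Among the non-catalytic beta subunits, Psmb2 had the smallest p. It measured 139, 202 and 162 CPM in DPBS and 106, 128, 126 and 155 CPM in FAPi. All FAPi libraries but replicate 4 lay under the DPBS values. Fitted over all libraries, the log2 fold change was -0.38 ± 0.26 (SE; edgeR adjusted p = 0.748), and -0.23 without DPBS replicate 2. Psmb3 was the steadiest member, with a highest over lowest library ratio of 1.34. It showed 337, 379 and 293 CPM in DPBS and 384, 380, 393 and 324 CPM in FAPi, which overlapped. Its log2 fold change of 0.14 ± 0.22 (SE) had a 95% interval of -0.35 to 0.62. Psmb1 and Psmb4 had log2 fold changes of -0.29 and -0.03. Psmb11 encodes the beta subunit of the thymus proteasome. It was counted 1, 1 and 4 times in DPBS and 1, 0, 1 and 0 times in FAPi and did not pass the low-count filter.

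**Figure D2:**
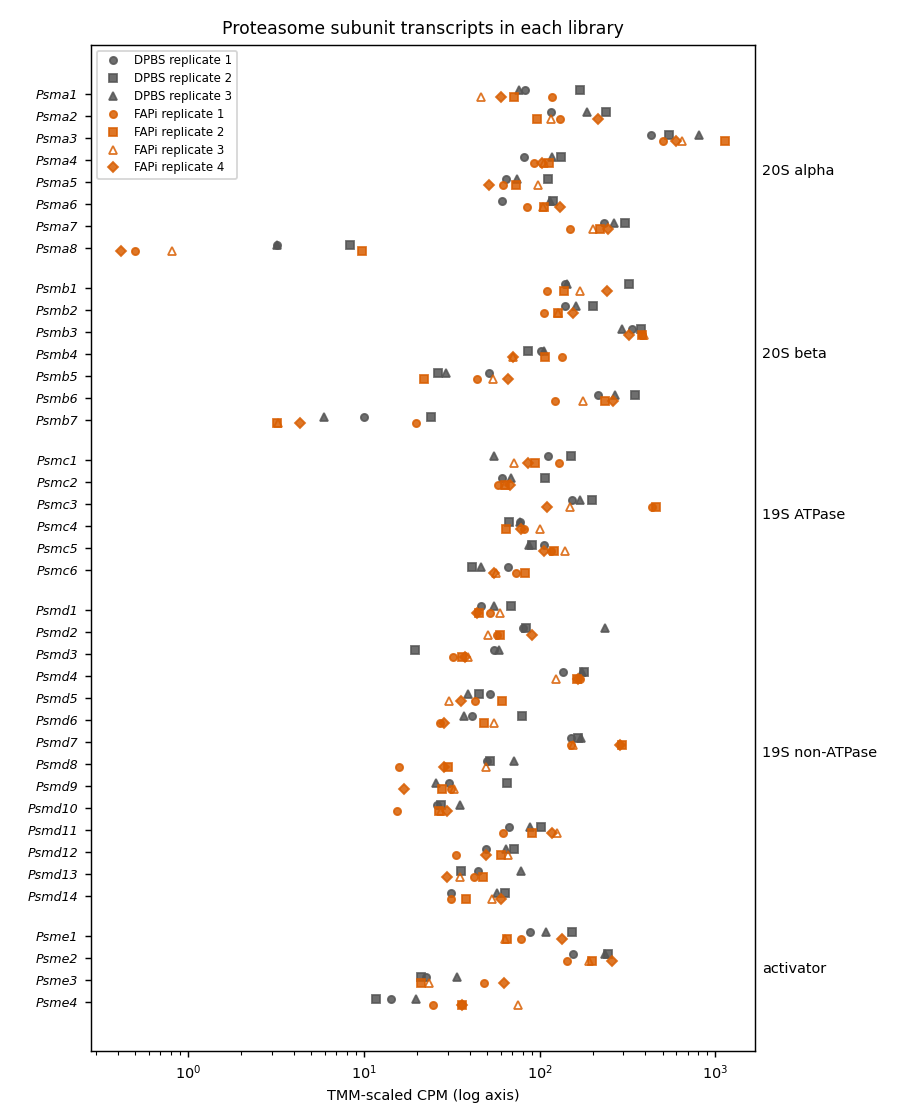
TMM-scaled CPM (log axis) of each proteasome gene in each library, with DPBS and FAPi libraries in different colours and 1 point per library. The Psmb3 libraries lie closest together and the Psma8 libraries farthest apart.

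In the 19S cap, the 6 ATPase genes (Psmc1 to Psmc6), which form the unfolding ring, had 4 higher and 2 lower estimates and a median log2 fold change of 0.24. Psmc3 had the smallest p of them. Its level was 153, 199 and 171 CPM in DPBS and 434, 459, 149 and 110 CPM in FAPi. FAPi replicates 1 and 2 lay above every DPBS library, and FAPi replicates 3 and 4 lay below every one. On the log2 scale the estimate was 0.72 ± 0.47 (SE; 95% interval -0.32 to 1.77; edgeR adjusted p = 0.733), and 0.39 without FAPi replicate 2.

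Psmc5 measured 106, 90.5 and 87.3 CPM in DPBS and 117, 121, 139 and 105 CPM in FAPi. FAPi replicate 4 lay just under DPBS replicate 1, the only overlap. Its log2 fold change was 0.35 ± 0.26 (SE; edgeR adjusted p = 0.776). Psmc6, another ATPase of the ring, stood at 66.1, 41.4 and 46.7 CPM in DPBS and at 73.1, 83.1, 56.4 and 55.0 CPM in FAPi. DPBS replicate 1 lay inside the FAPi range and the other two DPBS libraries below it. For Psmc6 the log2 fold change was 0.38 ± 0.34 (SE; edgeR adjusted p = 0.821), and 0.24 without FAPi replicate 2. Psmc2 showed 60.8, 107 and 69.1 CPM in DPBS and 58.2, 64.0, 63.8 and 67.6 CPM in FAPi. The FAPi libraries were close together and DPBS replicate 2 stood above them. Its log2 fold change was -0.32 ± 0.32 (SE), and -0.04 without DPBS replicate 2. Psmc1 and Psmc4 had log2 fold changes of -0.16 and 0.14.

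The 14 non-ATPase cap genes had 2 higher and 12 lower estimates and a median log2 fold change of -0.25. The base of the cap, where the ubiquitin receptors sit, also holds the ATPases. Its 3 non-ATPase members (Psmd1, Psmd2 and Psmd4) all had lower estimates, with a median of -0.17. Of the 6 ATPase genes, 4 had higher and 2 lower estimates. Psmd2, a scaffold subunit of the base, measured 80.4, 83.7 and 237 CPM in DPBS and 57.4, 60.0, 50.7 and 90.7 CPM in FAPi. DPBS replicate 3 stood far above all other libraries, and FAPi replicate 4 lay above the other two DPBS values. The means were 134 ± 89.4 (SD, n = 3) and 64.7 ± 17.8 CPM (SD, n = 4). Psmd2 had a log2 fold change of -1.05 ± 0.42 (SE; 95% interval -1.98 to -0.12), with an edgeR adjusted p of 0.563, and it was -0.34 without DPBS replicate 3. For Psmd4, a ubiquitin receptor, the estimate was -0.07 ± 0.25 (SE).

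Of the 8 lid genes, which include the deubiquitinase Psmd14, 2 had higher and 6 lower estimates, with a median of -0.27. Psmd8 was the one lid gene whose groups did not overlap. It stood at 49.99, 52.4 and 71.3 CPM in DPBS and at 15.8, 30.2, 49.6 and 28.8 CPM in FAPi. All FAPi libraries lay under all DPBS libraries, replicate 3 only just. Means of 57.9 ± 11.7 (SD, n = 3) and 31.1 ± 13.9 CPM (SD, n = 4) gave a log2 fold change of -0.90 ± 0.42 (SE; 95% interval -1.83 to 0.04; edgeR adjusted p = 0.628). Psmd7, which pairs with Psmd14 in the lid, measured 150, 165 and 172 CPM in DPBS and 151, 295, 156 and 286 CPM in FAPi. FAPi replicates 2 and 4 were high and the other two lay among the DPBS values. Its log2 fold change was 0.45 ± 0.31 (SE; edgeR adjusted p = 0.746), and 0.27 without FAPi replicate 2. Psmd14 itself had a log2 fold change of -0.15 ± 0.40 (SE), and Psmd11, the other lid gene with a higher estimate, of 0.21 ± 0.33 (SE).

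The 3 chaperones that assemble the base, Psmd5, Psmd9 and Psmd10, all had lower estimates, with a median of -0.25. Psmd9 showed 30.6, 65.1 and 25.9 CPM in DPBS and 31.3, 27.9, 32.6 and 17.03 CPM in FAPi. DPBS replicate 2 stood above all others, and the groups overlapped without it. The log2 fold change of -0.57 ± 0.45 (SE) became -0.06 without DPBS replicate 2. Psmd5 stood at 52.4, 45.1 and 39.02 CPM in DPBS and at 43.2, 61.0, 30.4 and 35.7 CPM in FAPi. The FAPi values lay on both sides of the DPBS values, and the log2 fold change was -0.10 ± 0.37 (SE).

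Of the 4 activator genes, Psme3 and Psme4 had higher and Psme1 and Psme2 lower estimates. Psme4 encodes PA200, the large activator that favours degradation of acetylated histones and other proteins without ubiquitin. It measured 14.3, 11.7 and 19.8 CPM in DPBS and 24.7, 36.4, 75.4 and 36.2 CPM in FAPi. Every FAPi library lay above every DPBS library, and replicate 3 was the highest. The means were 15.3 ± 4.12 (SD, n = 3) and 43.2 ± 22.1 CPM (SD, n = 4). The log2 fold change was 1.497 ± 0.49 (SE; 95% interval 0.42 to 2.57), the largest of all members, with an unadjusted p of 0.0109 and an edgeR adjusted p of 0.490. DESeq2 gave 1.53 with an adjusted p of 0.122. With each library left out in turn, the estimate ranged from 1.09 without FAPi replicate 3 to 1.73 without DPBS replicate 3.

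Psme3 encodes PA28 gamma, the nuclear form of the ring activator. Its level was 22.5, 21.1 and 33.7 CPM in DPBS and 48.2, 21.2, 23.4 and 62.7 CPM in FAPi. FAPi replicates 1 and 4 were high, and the other two lay among the DPBS values. The means were 25.8 ± 6.92 (SD, n = 3) and 38.9 ± 20.04 CPM (SD, n = 4). The log2 fold change was 0.59 ± 0.48 (SE; edgeR adjusted p = 0.799), and 0.26 without FAPi replicate 4.

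Psme1 and Psme2 encode the interferon-inducible PA28 alpha and beta, which form a mixed ring, and lie 5911 bases apart on chromosome 14. Psme1 stood at 87.7, 154 and 109 CPM in DPBS and at 78.5, 65.4, 63.8 and 135 CPM in FAPi. FAPi replicates 1 to 3 lay under all DPBS libraries and replicate 4 among them. Its log2 fold change was -0.45 ± 0.35 (SE; 95% interval -1.23 to 0.33), and -0.20 without DPBS replicate 2. Psme2 measured 155, 246 and 235 CPM in DPBS and 143, 199, 191 and 259 CPM in FAPi. The groups covered the same range, and the log2 fold change was -0.10 ± 0.28 (SE; edgeR adjusted p = 0.966). Reads of Psme2 could be split with Psme2b, which is 99.4% identical over the aligned stretch and held 1394 counts against 12725 for Psme2. In the same libraries, all 10 markers of the interferon response, Ifit1 and Isg15 among them, had lower estimates in FAPi, and 0 of them were called by edgeR. Their sum did not overlap between groups, at 1002 to 1183 CPM in DPBS and 604 to 812 CPM in FAPi. The 10 neutrophil markers, the 9 erythroid markers tested and the 8 cell cycle markers also all had lower estimates, with 0 called. The neutrophil sums only just did not overlap, with the lowest DPBS sum at 620 CPM and the highest FAPi sum at 619 CPM. Whether any of these lists has a part in the Psme1 and Psme2 values was not tested.

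**Figure D3:**
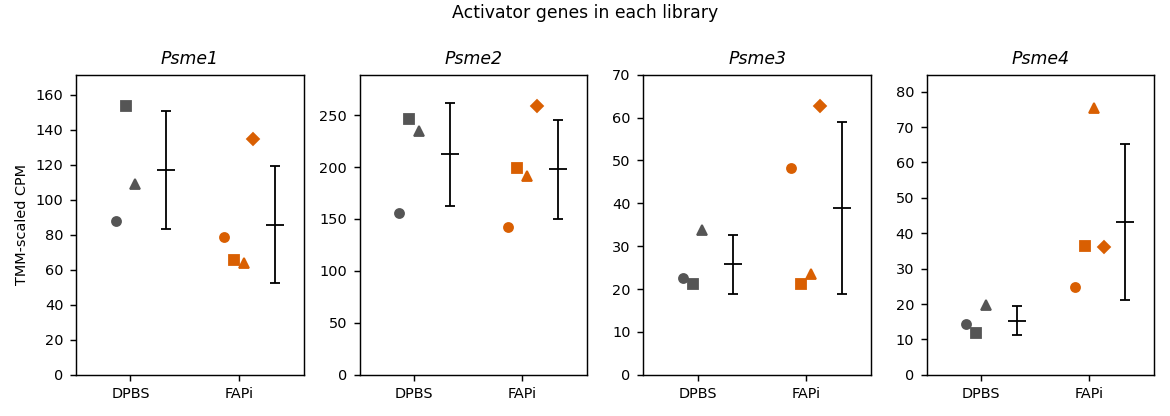
TMM-scaled CPM (linear vertical axis from 0) of the 4 activator genes. Points are libraries, with circle, square, triangle and diamond for replicates 1 to 4, and black bars are the group mean and SD. All FAPi points of Psme4 lie above all DPBS points, and the groups overlap for the other 3 genes.

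To compare genes with each other, counts were divided by the length of the principal transcript and scaled to the same total in each library (TPM). On this per-length scale and averaged over the 7 libraries, the level of Psmb3 was the highest, at 978 TPM, followed by Psmb6 at 605 and Psma7 at 530 TPM. The order depends on the length used: with union exon lengths, Psma3 ranked 1, Psmb3 2 and Psma7 10. The 14 core subunits of the constitutive barrel, which are built into it in equal number, ranged from 18.5 TPM (Psmb7) through a median of 199 TPM to 978 TPM (Psmb3). Without Psmb7, whose counting is uncertain, the lowest was 100 TPM (Psmb5). Of the ATPase genes, Psmc3 had the highest level, at 306 TPM, and Psmc6 the lowest, at 57.02 TPM. Of the non-ATPase cap genes, Psmd7 led at 258 TPM and Psmd5 was last at 21.0 TPM. Among activators, levels ran from 442 TPM for Psme2 and 186 TPM for Psme1 to 26.5 TPM for Psme3 and 10.1 TPM for Psme4. The tissue-specific Psma8 and Psmb11 stood at 4.45 and 0.06 TPM.

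**Figure D4:**
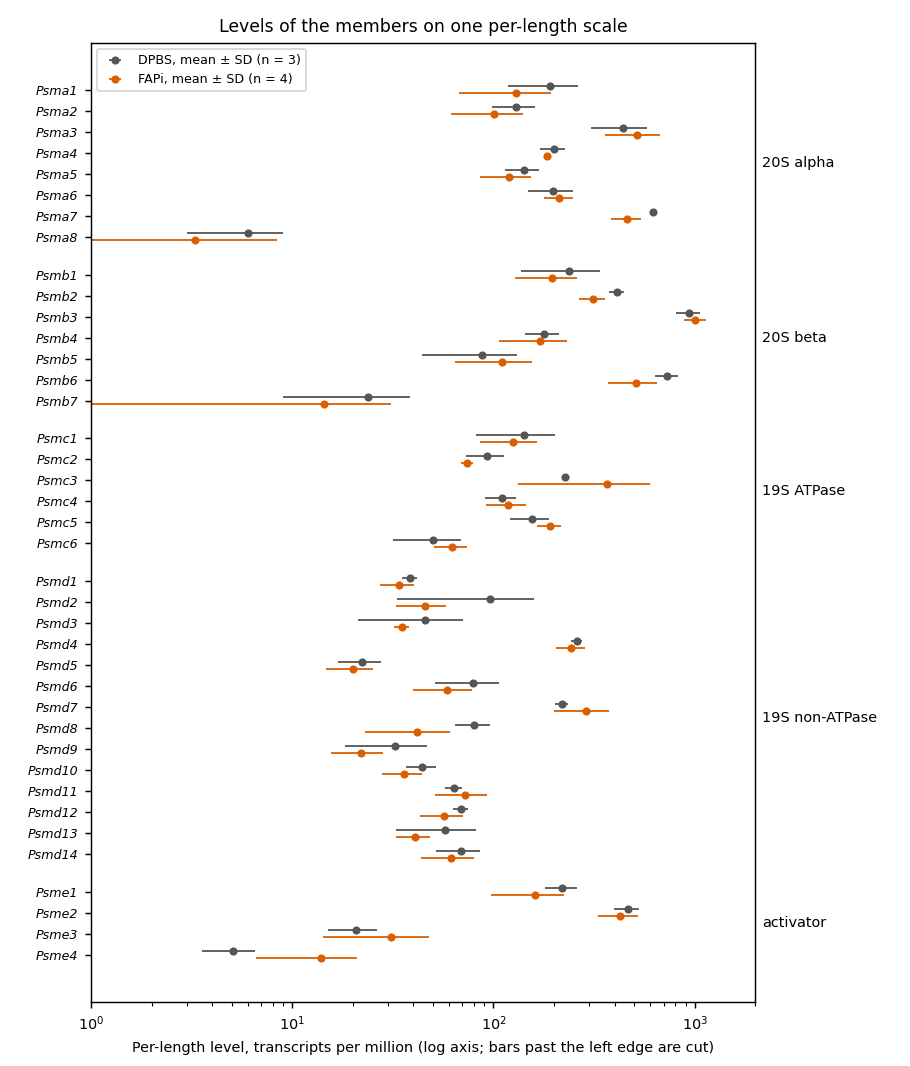
Level per transcript length (TPM, log axis) of the proteasome genes by class, with group means as points and SD as error bars for DPBS and FAPi. Psmb3 leads at 978 TPM, and Psmb7, Psme4 and Psma8 lie at the low end.

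Ratios of partner genes on the per-length scale overlapped between groups. The ratio of Psme1 to Psme2 was 0.476 ± 0.070 in DPBS (SD, n = 3) and 0.375 ± 0.102 in FAPi (SD, n = 4). The immunoproteasome subunit Psmb8 takes the place of Psmb5, and their ratio was 2.59 ± 1.09 in DPBS (SD, n = 3) and 1.73 ± 1.18 in FAPi (SD, n = 4). Psmb9 takes the place of Psmb6, and their ratio was 0.214 ± 0.017 in DPBS (SD, n = 3) and 0.321 ± 0.166 in FAPi (SD, n = 4). FAPi replicate 1 stood at 0.565 and the other FAPi libraries at 0.192 to 0.280. The ratio of Psmb10 to Psmb7, whose level is uncertain, was 11.6 ± 8.55 in DPBS (SD, n = 3) and 18.0 ± 10.5 in FAPi (SD, n = 4).

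Summed levels per class overlapped between groups on the TMM scale. The 20S core summed to 2063, 3016 and 2661 CPM in DPBS and to 2062, 2838, 2315 and 2522 CPM in FAPi. The 19S cap summed to 1437, 1715 and 1703 CPM and to 1658, 1916, 1485 and 1524 CPM. For the activators the sums were 280, 433 and 397 CPM and 294, 322, 354 and 492 CPM. The log2 ratios of the group means, FAPi to DPBS, were -0.08, 0.02 and -0.02 for core, cap and activators. Single genes weighed on these ratios. With Psma3 left out of the sum, the core ratio was -0.21. The cap ratio joined 0.30 for the summed ATPase genes and -0.16 for the non-ATPase genes. Among the ATPase genes, Psmc3 had a mean of 174 (DPBS) and 288 CPM (FAPi), and a cap sum without it was not tested. Other scales gave another picture of the same counts. As a plain share of a library's counts, all members together took 0.485 ± 0.0424% in DPBS (SD, n = 3) and 0.419 ± 0.0138% in FAPi (SD, n = 4), and the groups did not overlap. On the per-length scale the core summed to 4306, 4889 and 4403 TPM in DPBS and to 3902, 4003, 4006 and 4284 TPM in FAPi, also without overlap. In limma with the deposited CPM, which are not TMM-scaled, 30 of 39 members had a lower estimate, but so had 61.4% of all genes, with a median over all genes of -0.17.

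Members shared their highest library more often than genes in general. DPBS replicate 2 was the highest of the 7 libraries for 18 of 39 members (46.2%), and for 17.5% of all genes. This held for 9 of 15 core and 8 of 20 cap genes. DPBS replicate 1 was the highest for 0 of 39 members and for 11.1% of all genes. FAPi replicate 1 was the lowest for 12 of 39 members, a larger share than the 14.9% of all genes. The median deviation of the core genes from their mean over libraries was 0.50 log2 units in DPBS replicate 2 and -0.25 in FAPi replicate 1. Without DPBS replicate 2 the median log2 fold change was -0.06 for the core and -0.01 for the cap, against -0.29 and -0.17 with it. DPBS replicate 2 also had the highest erythroid, neutrophil and cell cycle marker sums, and the part of these in the proteasome values was not tested. Within groups, the median coefficient of variation of members was 26.9% in DPBS and 28.2% in FAPi. Genes in the level range of the members, 4856 in number, had 29.4% and 33.6%. The low Psma8 and Psmb7 were left out in setting this range but are in the medians of the members.

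**Figure D5:**
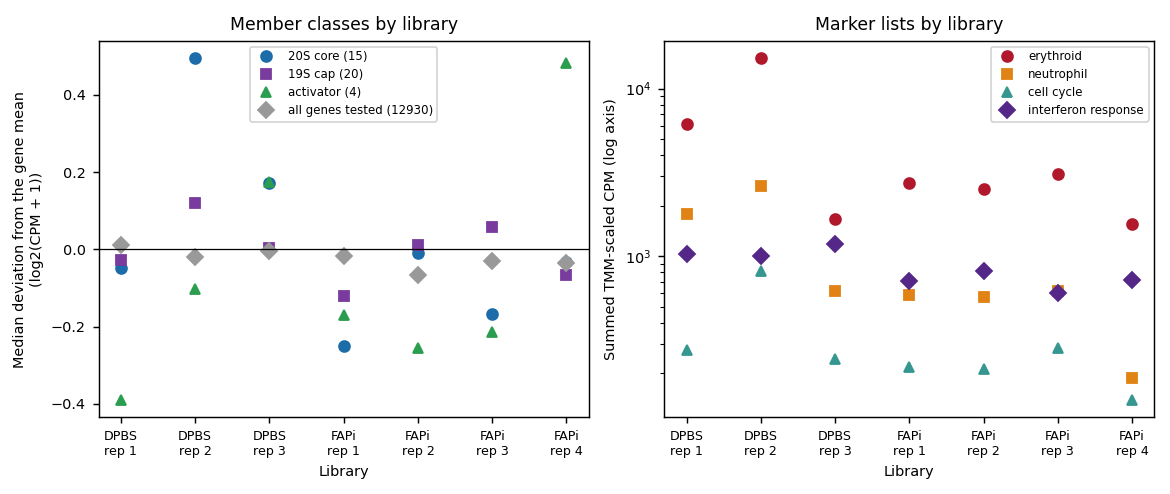
Left, the median deviation of the tested genes of each class, and of all genes, from the gene mean over libraries (log2 of CPM plus 1). Right, summed TMM-scaled CPM (log axis) of marker lists in each library. DPBS replicate 2 has the highest core median, 0.50, and the highest erythroid, neutrophil and cell cycle sums.

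Genes that serve the proteasome from outside the symbol rule were looked at as 6 fixed lists. None of their genes was called by edgeR or by DESeq2, and none had an unadjusted edgeR p below 0.05. Of the assembly chaperones listed, 5 of 6 were matched, all but Paaf1. The matched ones had 1 higher and 4 lower estimates and a median log2 fold change of -0.42. Pomp, which helps the beta ring mature, measured 112, 280 and 234 CPM in DPBS and 128, 148, 140 and 135 CPM in FAPi. DPBS replicate 1 was the lowest library and the other two DPBS libraries the highest, and the log2 fold change was -0.60 ± 0.31 (SE). Psmg1, an alpha ring chaperone, had -1.14 ± 0.62 (SE). The 3 immunoproteasome genes had lower estimates, with a median of -0.37. Psmb8 stood at 140, 177 and 137.1 CPM in DPBS and at 132, 136.9, 95.9 and 103 CPM in FAPi. Its groups only just did not overlap, and 3.95% of all genes were lower in FAPi without overlap. The log2 fold change of Psmb8 was -0.37 ± 0.27 (SE). Psmb10 had -0.45 ± 0.28 (SE).

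The 9 genes of transcriptional control had 6 higher and 3 lower estimates, with a median of 0.04. Nfyc, a subunit of the factor that binds CCAAT boxes, had 1.03 ± 0.49 (SE), and Ddi2, the protease that activates Nfe2l1, 0.52 ± 0.35 (SE). The 7 shuttle factors, which carry ubiquitinated proteins to the cap, had 3 higher and 4 lower estimates. Rad23b measured 43.3, 36.5 and 29.1 CPM in DPBS and 23.0, 20.3, 18.3 and 28.6 CPM in FAPi. All FAPi libraries lay under all DPBS libraries, replicate 4 only just, and 3.95% of all genes were lower in FAPi without overlap. The log2 fold change of Rad23b was -0.69 ± 0.39 (SE). Cap partners outside the rule, 8 in number, had 4 higher and 4 lower estimates. The deubiquitinase Usp14 had 1.15 ± 0.71 (SE), with FAPi replicate 3 at 149 CPM and the other libraries at 14.9 to 34.8 CPM, and the ubiquitin ligase Ubr4 0.60 ± 0.45 (SE). The 6 ubiquitin and activating enzyme genes had 2 higher and 4 lower estimates, among them Rps27a at -0.50 ± 0.33 (SE) and Ubb at -0.31 ± 0.26 (SE).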

How the data were processed

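RNA-seq counts of sorted BMSCs from 3 DPBS and 4 FAPi mice were analysed, 1 library per replicate. The authors deposited whole-number counts per gene and CPM for each library. The deposited CPM equal the count over the library's total to within 4.55e-05 CPM, and 6 of the 7 CPM tables repeat their end, so the first line per gene was used. The submitters' processing notes list STAR, HTSeq and mm10 and no version numbers, and which annotation and strand setting were used in counting is not given in the sources read here. Of 53801 gene IDs, 53620 matched GENCODE M21.

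The main test used edgeR 4.0.16 in R 4.3.3 (filterByExpr by group with a minimum count of 10, TMM, robust glmQLFit and glmQLFTest). Benjamini-Hochberg adjustment ran over 12930 genes at 0.05. SE is the absolute log2 fold change over the square root of F. CPM in the text are TMM-scaled unless called deposited. DESeq2 1.42.0 and limma 3.58.1 were alternatives. The procedure was tested on simulated data.

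The p-values measure only the spread between these libraries. A floor of 3 counts covers only counting error, because amplified reads that carry no molecular identifier are not independent molecules. The members, lists and tests were chosen with earlier results of these data known. Values in every library are given for the catalytic and activator genes and, per role group, for the 3 members with the smallest p and the highest and lowest per-length level, taken by principal transcript or by union exon length. Genes of the related lists were named by the 2 smallest p, except 1 that is not reported here. Principal transcript lengths were adopted after seeing that union exon lengths include retained introns. Sequences of 200 or more aligned bases at 90% identity or more with another annotated transcript, overlapping genes included, were found for 17 members.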

Additional observations from a re-analysis of the deposited data

Results flagged for a closer look

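Of 42 values checked in the 4 FAPi libraries, 3 had a library far from the others by Dixon's test at its 95% level, which chance passes in about 1 of 20 groups. Psmd4 stood at 123.8 CPM in FAPi replicate 3 and at 163.1 to 169.6 CPM in the other FAPi libraries, a gap ratio of 0.858. Psma8 stood at 9.82 CPM in FAPi replicate 2 and at 0.419 to 0.815 CPM in the others, with a gap ratio of 0.958. Psmb7 stood at 19.8 CPM in FAPi replicate 1 and at 3.23 to 4.33 CPM in the others, with a gap ratio of 0.934. The DPBS group of 3 is too small for this check.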

How the results depend on the processing

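No member passed the threshold in either direction under any alternative run. Over all genes, where edgeR called 0 higher and 0 lower, DESeq2 called 81 higher and 49 lower (with 412 adjusted p-values not given), limma-voom 1 higher, the fit with no filter 5 higher and 1 lower, limma on deposited CPM 4 higher and 2 lower with a pseudocount of 1 and 4 and 2 with 0.1, and an adjusted threshold of 0.1 gave 1 higher. Leaving out 1 library each gave 0 to 2 higher and 0 to 1 lower, the 2 higher and the 1 lower without DPBS replicate 3. The median log2 fold change of the core, -0.29, ranged from -0.49 to -0.061 (without DPBS replicate 2) over left-out libraries, and that of the cap, -0.17, from -0.25 to -0.0077. The cap median was -0.31 in limma on deposited CPM with either pseudocount. The summed cap ratio of 0.02 became -0.15 on deposited CPM. Activator genes with a lower estimate, 2 of 4, numbered 1 to 2. Of 368 alternative values for 23 named members, 361 kept their direction and 7 did not. The opposite ones were in Psma3 (-0.041 to 0.57 over left-out libraries), Psmd5 (-0.33 to 0.044), Psme2 (-0.29 to 0.026) and Psmb3 (-0.0328 and -0.0329 in limma on deposited CPM). The cause of these shifts was not tested. Libraries with the same replicate number did not deviate together (correlations -0.01, -0.02 and -0.05). The labels do not say whether the numbers pair the libraries, and so few libraries cannot decide it. With a replicate block, 0 genes passed, 718 genes had an unadjusted p below 0.05, and 26 of 39 members had a lower estimate. For the 23 tested members whose 95% interval reaches beyond 1 log2 unit, a change of that size is not excluded.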
